A study of Mus musculus with 24 samples.

Results

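The genes of the cellular response to low oxygen and of glycolysis were followed as a set of 38 genes, chosen by name, of the 45616 gene names on the array. The set held the oxygen-sensing machinery, the secreted, mitochondrial and collagen-modifying targets of the hypoxia-inducible factors (HIFs), the glucose and lactate transporters, and the glycolytic enzymes with their regulators. Each gene was read through the brightest of its probes. Colon RNA of C57BL/6J mice was hybridized to 1-color Agilent arrays, with 4 arrays in each of 6 groups and 24 arrays in all. Males (M) and females (F) with sham surgery and ovariectomized females, F(OVX), ate a diet with 10 kcal% fat (LFD) or 45 kcal% fat (HFD) for 14 weeks. The mice were 7 weeks old when bought, and surgery preceded the diets. All 6 groups, the LFD groups included, were given the carcinogen azoxymethane (AOM) at 10 mg/kg and 3 rounds of 1.5% dextran sulfate sodium (DSS), an agent that injures the colonic lining, and were killed 75 days after AOM. The series used here thus holds no group without AOM and DSS. The methods name 5 animals per group for the arrays and the labels give 4.

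In cells with enough oxygen, the prolyl hydroxylases encoded by Egln1 and Egln3 hydroxylate the HIF alpha subunits, encoded by Hif1a and Epas1, and the VHL protein then marks them for degradation. When oxygen falls, the alpha subunits persist, pair with the protein of Arnt and bind hypoxia response elements near their target genes, which include vascular growth factors, glucose transporters and most glycolytic enzymes. The surface of the colonic epithelium is low in oxygen even in health, and inflamed or tumor-bearing mucosa can be more so. HIF activity is set largely by the stability of the alpha subunits, whereas the arrays measured transcripts.

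The HIF-binding core of a hypoxia response element is ACGTG or GCGTG on either strand, which reads CACGT or CACGC on the other strand. In the windows of 250 bases before a transcription start in RefSeq (GRCm38.p6), matches to these letters were counted for the 34 members with an entry. No entry was found for Epas1, Bnip3l, Ndrg1 and Slc2a3. The 34 members had 47 windows, because several have more than 1 start. ACGTG or its complement was present in 21 of the 47 windows (44.7%), against 16.6% of all 32851 windows of this length. Either core was present in 37 of the 47 windows (78.7%), against 38.6% of all windows. The members were picked in part as known HIF targets, so these shares describe the set, and a match of 5 letters is not a binding site. Where CACGTG occurs, the match on each strand overlaps the other and both were counted.

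The windows of the 4 members that passed the threshold for a difference between diets are printed first, followed by those of 2 glycolytic enzymes that did not pass it, for comparison. Each reads 5′ to 3′ towards the start, on the strand of the gene, with matches to either core on either strand in capitals. The Hif1a window holds 3 matches, Egln3 1, P4ha1 3, Ankrd37 4, Ldha 5 and Pgk1 2. Ldha has a second window, with 1 match, which is not printed.
Hif1a (chr12:73907617-73907866, plus strand): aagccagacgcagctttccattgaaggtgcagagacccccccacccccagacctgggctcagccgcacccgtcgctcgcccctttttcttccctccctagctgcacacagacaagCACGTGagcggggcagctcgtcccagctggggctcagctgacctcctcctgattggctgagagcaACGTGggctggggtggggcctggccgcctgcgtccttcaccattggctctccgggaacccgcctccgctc
Egln3 (chr12:54203875-54204124, minus strand): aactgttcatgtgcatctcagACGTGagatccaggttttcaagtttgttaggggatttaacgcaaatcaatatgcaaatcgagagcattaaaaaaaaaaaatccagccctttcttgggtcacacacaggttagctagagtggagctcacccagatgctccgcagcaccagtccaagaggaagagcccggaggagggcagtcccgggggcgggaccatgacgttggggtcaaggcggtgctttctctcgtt
P4ha1 (chr10:59323046-59323295, plus strand): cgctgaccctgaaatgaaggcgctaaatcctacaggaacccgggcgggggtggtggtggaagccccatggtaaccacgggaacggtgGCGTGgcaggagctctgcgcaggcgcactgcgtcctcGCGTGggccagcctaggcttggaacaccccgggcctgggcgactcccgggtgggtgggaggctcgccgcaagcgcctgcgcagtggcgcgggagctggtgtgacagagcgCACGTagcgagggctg
Ankrd37 (chr8:45999851-46000100, minus strand): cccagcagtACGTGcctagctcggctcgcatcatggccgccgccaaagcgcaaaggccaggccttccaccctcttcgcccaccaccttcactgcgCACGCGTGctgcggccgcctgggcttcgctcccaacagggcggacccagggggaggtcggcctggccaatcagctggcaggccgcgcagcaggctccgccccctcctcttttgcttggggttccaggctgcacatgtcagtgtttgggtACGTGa
Ldha (chr7:46845554-46845803, plus strand): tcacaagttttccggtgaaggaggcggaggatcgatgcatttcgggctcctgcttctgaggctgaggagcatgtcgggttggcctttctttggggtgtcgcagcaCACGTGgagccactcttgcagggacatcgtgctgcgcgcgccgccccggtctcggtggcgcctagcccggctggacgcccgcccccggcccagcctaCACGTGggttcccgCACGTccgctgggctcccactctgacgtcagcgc
Pgk1 (chrX:106186850-106187099, plus strand): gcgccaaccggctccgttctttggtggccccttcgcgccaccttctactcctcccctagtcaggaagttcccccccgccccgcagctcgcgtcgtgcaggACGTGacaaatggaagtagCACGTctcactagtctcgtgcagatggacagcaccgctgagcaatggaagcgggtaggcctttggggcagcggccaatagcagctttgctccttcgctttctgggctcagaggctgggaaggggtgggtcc

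All 38 members were found on the array, 19 of them by 1 probe and 19 by more, with 67 probes in all. Of the members, 37 were well above background on all 24 arrays. The exception was Slc2a3, the high-affinity glucose transporter GLUT3, which was well above background on 20 arrays and could not be tested in males. Levels are log2 intensities after quantile normalization, and they are compared only between arrays for the same gene. Probe sequences were not used here, so the levels of Eno1, Gapdh, Pgk1 and Ldha, which have near-identical copies in the genome, are uncertain in this respect. A bulk measurement cannot separate fewer cells of a type from less RNA per cell.

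The share of probes well above background ran from 40.5% to 61.85% per array, and arrays of the same group correlated at r = 0.951 to 0.99. The dimmest array, F(OVX) + LFD replicate 3 (40.5%), also had the lowest level of all 24 for 10 of the 38 members. M + LFD replicates 1 and 2 stood apart in genes that mark the distal colon. The mean log2 intensity of 6 such genes (Hoxb13, Hoxd13, Hoxa13, Hoxd12, Hoxd11 and Hoxd10) was 2.74 and 3.90 on those arrays and between 5.42 and 9.48 on the other 22. Those 22 also differed, at 8.27 or more on M + HFD replicate 1, F + LFD replicate 3, F + HFD replicate 3 and F(OVX) + LFD replicates 2 and 4. The rest were at 7.75 or less. Hoxb13 alone was 2.18 and 5.04 on M + LFD replicates 1 and 2 and 12.58 or more on the others, which goes against the labelled distal colon for these 2 libraries. Without them, the log2 fold change of HFD in males moved by over 0.3 for 8 of the 37 members tested, and for these and for the members called both values are given. All 6 epithelial, all 6 smooth muscle and all 6 macrophage and monocyte markers were well above background on every array, against 1 to 5 of 7 skeletal muscle markers. Each of M, F and F(OVX) lay on 1 slide of its own, with the LFD arrays in slide row 1 and the HFD arrays in row 2, so sex or surgery cannot be told apart from slide, nor diet from slide row.

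In males, HFD was accompanied by higher levels of 3 members, Egln3, Hif1a and P4ha1, and by lower levels of none. A member was called where the groups differed by 1.5-fold or more and limma gave an unadjusted p under 0.05, which are the thresholds of the study. The 3 called were 8.11% of the 37 members tested, and 2.5% of the 20515 genes tested were called up and 1.8% down. At an adjusted p under 0.05, limma left 0 members and 0 genes, while 4 of 37 members and 1250 of 20515 genes had an unadjusted p under 0.05. Over the 37 members the median log2 fold change was 0.08, with 22 higher and 15 lower, and over all genes it was 0.01. Without M + LFD replicates 1 and 2 the members' median was 0.17, with 29 higher and 8 lower, and with the mean of the distal colon markers as a covariate it was 0.20. Of the cell type and region markers, 3 were called in this comparison. They were Hoxd13 of the distal colon at 4.75, Slc26a3 of absorptive colonocytes, 2.15-fold higher, and Cidec of adipocytes at -3.06. Of the absorptive markers 3 were higher and 2 lower (-1.77 to 1.36), and of the adipocyte markers tested 1 was higher and 2 lower. Without M + LFD replicates 1 and 2, Hoxd13, Slc26a3 and Cidec differed by 2.915, 1.004 and -1.983 (log2), and none was called. Their unadjusted p was 0.0992, 0.0534 and 0.207 by limma. Hoxd13 is among the genes whose mean set those arrays apart. Tff3 of goblet cells was called without those arrays, at 0.686 (unadjusted p = 0.0472 by limma). The part of these markers in the members' values was not tested.

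Egln3, a prolyl hydroxylase that is itself a HIF target, differed most. Its log2 intensity was 9.34, 9.54, 9.51 and 9.84 in M + LFD and 10.50, 10.44, 10.99 and 10.60 in M + HFD. All 4 HFD arrays lay above all 4 LFD arrays. The log2 fold change was 1.08 (SE 0.17, a 2.11-fold difference, unadjusted p = 0.000201, adjusted p = 0.763 by limma). The exact permutation test of the diets gave p = 0.0286, two-sided, the smallest that 4 arrays against 4 allow. Without M + LFD replicates 1 and 2 the log2 fold change was 0.96 (unadjusted p = 0.00392 by limma) and Egln3 was still called. In females the levels were 9.38, 9.39, 11.19 and 10.49 with LFD and 10.21, 9.86, 10.31 and 10.59 with HFD, and the diets overlapped (log2 fold change 0.13, SE 0.41). In ovariectomized females they were 11.05, 10.67, 10.79 and 11.05 with LFD and 10.50, 9.75, 11.03 and 10.22 with HFD, and the log2 fold change was -0.52 (SE 0.26, unadjusted p = 0.0789 by limma). The M + LFD mean of 9.56 ± 0.21 (SD, n = 4) was the lowest of the 6 groups and the F(OVX) + LFD mean of 10.89 ± 0.19 the highest.

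Hif1a encodes the HIF-1 alpha subunit. It read 10.30, 10.12, 11.04 and 11.52 in M + LFD and 11.64, 11.89, 11.50 and 11.49 in M + HFD. The arrays of the diets overlapped, because M + LFD replicate 4 lay among the HFD arrays, and M + LFD replicates 1 and 2 were the lowest of all 24. The log2 fold change was 0.89 (SE 0.31, 1.85-fold, unadjusted p = 0.0188, adjusted p = 0.801 by limma). Without M + LFD replicates 1 and 2 it was 0.35 (unadjusted p = 0.154 by limma) and Hif1a was no longer called, and without replicate 1 alone it was 0.74 (unadjusted p = 0.0531 by limma). With the mean of the distal colon markers as a covariate it was 0.42 (unadjusted p = 0.297 by limma). In females Hif1a read 10.96, 11.09, 11.82 and 11.77 with LFD and 11.68, 11.46, 11.12 and 11.17 with HFD. In ovariectomized females it read 11.88, 11.72, 11.61 and 11.78 with LFD and 11.73, 10.71, 11.56 and 11.65 with HFD. Both comparisons overlapped, with log2 fold changes of -0.05 (SE 0.24) and -0.34 (SE 0.23). F(OVX) + HFD replicate 2, at 10.71, lay apart from the rest of its group. 

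P4ha1 encodes a catalytic subunit of the prolyl 4-hydroxylase that hydroxylates collagen, and it is a HIF target. It read 7.19, 6.20, 7.38 and 6.95 in M + LFD and 7.39, 8.21, 7.62 and 7.89 in M + HFD. The diets did not overlap, but the nearest arrays, 7.38 with LFD and 7.39 with HFD, lay close together. The log2 fold change was 0.85 (SE 0.28, 1.8-fold, unadjusted p = 0.0163, adjusted p = 0.801 by limma). It was 0.61 without M + LFD replicates 1 and 2 (unadjusted p = 0.0619 by limma), 0.92 with the distal colon markers as a covariate (unadjusted p = 0.0591 by limma) and 0.57 after normexp background correction, a model-based alternative, which is under the fold-change threshold. P4ha1 read 7.08, 7.40, 6.87 and 6.66 in F + LFD, 7.33, 6.39, 7.63 and 6.69 in F + HFD, 7.41, 6.96, 7.24 and 6.82 in F(OVX) + LFD and 7.47, 6.88, 7.82 and 6.46 in F(OVX) + HFD. The diets overlapped in both, with log2 fold changes of 0.01 (SE 0.29) and 0.05 (SE 0.29). The other collagen prolyl hydroxylase subunit, P4ha2, differed by 0.00 in males (log2, 95% interval -0.60 to 0.60).

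**Figure D1:**
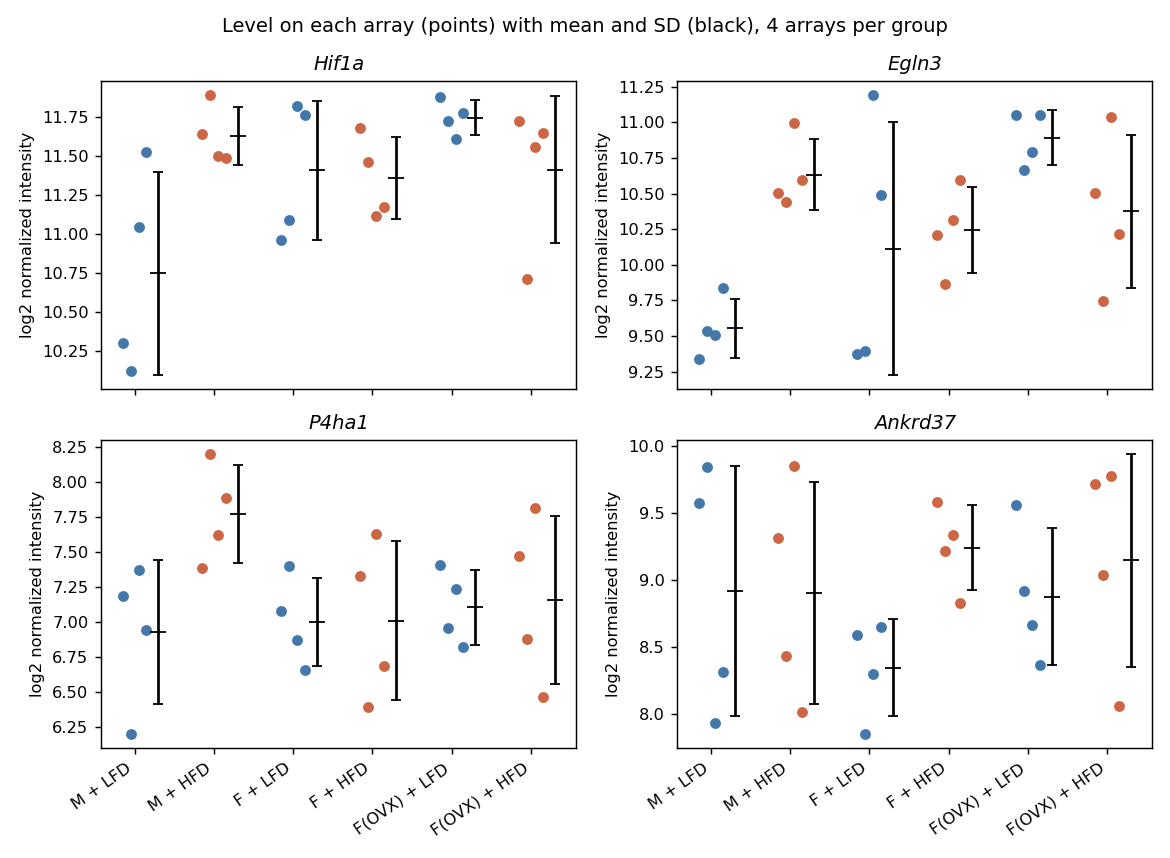
Log2 normalized intensity (vertical axis) of the 4 members called in a diet comparison, by group (horizontal axis), with 1 point per array, blue for LFD and orange for HFD, and the mean and SD of 4 arrays in black. Egln3 lay between 9.34 and 9.84 in M + LFD and between 10.44 and 10.99 in M + HFD, whereas Hif1a overlapped between the diets in males through M + LFD replicate 4.

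The remaining oxygen-sensing genes had smaller differences in males. Egln1, the main prolyl hydroxylase, was higher with HFD by 0.35 (SE 0.14, unadjusted p = 0.0342, adjusted p = 0.801 by limma), under the fold-change threshold. Epas1, which encodes HIF-2 alpha, read 13.05, 13.21, 12.67 and 13.07 in M + LFD and 13.70, 13.07, 13.20 and 13.38 in M + HFD. The diets overlapped, and the log2 fold change was 0.34 (SE 0.19). Vhl and Arnt differed by -0.13 (SE 0.18) and 0.06 (SE 0.27).

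The secreted and surface products of the HIF response were not called in males. Vegfa, the vascular endothelial growth factor, read 10.16, 9.79, 9.65 and 9.72 in M + LFD and 10.05, 9.81, 10.34 and 10.18 in M + HFD. These arrays overlapped, and the log2 fold change was 0.27 (95% interval -0.13 to 0.66). It was 0.41 without M + LFD replicates 1 and 2 (unadjusted p = 0.0789 by limma). Adm, which encodes the vasodilator adrenomedullin, and Car9, a membrane carbonic anhydrase, differed by 0.43 (SE 0.52) and -0.28 (SE 0.21). Without those 2 arrays Adm differed by 0.95 (SE 0.59, unadjusted p = 0.153 by limma) and with the covariate by 1.13. Among the mitochondrial and stress targets, Higd1a, an inner-membrane protein of mitochondria, had the lowest value, a log2 fold change of -0.89 (SE 0.41, unadjusted p = 0.061 by limma). It read 16.07, 15.92, 15.01 and 14.46 in M + LFD and 14.05, 14.36, 15.29 and 14.20 in M + HFD, with M + LFD replicates 1 and 2 highest. Without those arrays the difference was -0.26 (unadjusted p = 0.522 by limma). Ndrg1 was also highest of all 24 on M + LFD replicates 1 and 2, at 14.68 and 14.37, and differed by -0.33 in all male arrays and 0.56 (unadjusted p = 0.193 by limma) without them. Bnip3 and Bnip3l, which act in mitophagy, Ddit4, an inhibitor of mTOR signaling, and the histone demethylase gene Kdm3a differed by 0.09 to 0.39, and Bnip3 by 0.63 (SE 0.35) without the 2 arrays.

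Of the 14 glycolytic enzymes, 0 were called in males. Their log2 fold changes ran from -0.24 for Gpi1 to 0.50 for Hk2, with a median of -0.03, 6 higher and 8 lower, and 0 had an unadjusted p under 0.05 by limma. Without M + LFD replicates 1 and 2 the count turned to 10 higher and 4 lower, with a median of 0.11 and 0 called. The direction of these enzymes as a group in males was thus not fixed. Hk1, the hexokinase of most tissues, read 12.55, 12.82, 12.74 and 12.83 in M + LFD and 12.95, 13.00, 13.04 and 12.85 in M + HFD. The diets did not overlap, by 0.22 between the means (SE 0.13, unadjusted p = 0.113 by limma). Hk1 made 1 of 3 members in males with all HFD arrays above all LFD arrays, an arrangement found in 1.69% of genes tested, and 0 members had all HFD arrays below (0.912% of genes). Hk2, the hexokinase induced by HIF, was set apart by 1 array, M + HFD replicate 2 at 12.29, with the other 3 HFD arrays between 11.01 and 11.19. Among the enzymes of the upper steps, the isomerase Gpi1 differed by -0.24 (SE 0.20), the phosphofructokinases Pfkl and Pfkp by -0.15 (SE 0.21) and -0.13 (SE 0.19), and the main aldolase, Aldoa, by -0.07 (SE 0.16). Without the 2 arrays these 4 were at 0.05, 0.18, 0.12 and 0.14. Triose phosphate isomerase, Tpi1, glyceraldehyde phosphate dehydrogenase, Gapdh, and phosphoglycerate mutase, Pgam1, differed by -0.02 (SE 0.14), -0.14 (SE 0.15) and 0.24 (SE 0.15). M + LFD replicates 1 and 2 held the highest Ldha levels of all 24 arrays, 15.94 and 15.98.

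The lower steps of the pathway were close between diets. Eno1, enolase, read 14.41, 14.27, 14.31 and 14.43 in M + LFD and 13.93, 14.26, 14.67 and 14.56 in M + HFD, and the difference was 0.00 (95% interval -0.41 to 0.41). Pkm, pyruvate kinase, read 14.27, 14.38, 13.94 and 14.29 with LFD and 14.20, 14.18, 14.26 and 14.57 with HFD, and differed by 0.08 (95% interval -0.27 to 0.44). Both genes overlapped throughout. Ldha, which makes lactate, differed by -0.18 (95% interval -0.49 to 0.14), and Pgk1 by -0.04 (95% interval -0.41 to 0.33). The printed Ldha window holds 5 core matches, with each CACGTG counted on both strands. Slc2a1, the glucose transporter GLUT1, read 13.01, 12.71, 11.44 and 12.21 in M + LFD and 12.27, 11.80, 12.92 and 12.60 in M + HFD. They overlapped, with a difference of 0.05 (SE 0.37), and M + LFD replicates 1 and 2 held 2 of the 3 highest levels of all 24 arrays. Without those arrays it was 0.57 (SE 0.36, unadjusted p = 0.166 by limma), and with the covariate also 0.57. Slc16a3, a lactate exporter, differed by 0.41 (SE 0.37). The regulators Pfkfb3, Pfkfb4 and Pdk1, which steer phosphofructokinase and pyruvate entry into mitochondria, differed by 0.51 (SE 0.38), 0.11 (SE 0.21) and -0.05 (SE 0.23). Pfkfb3 differed by 0.13 (SE 0.44) without the 2 arrays.

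**Figure D2:**
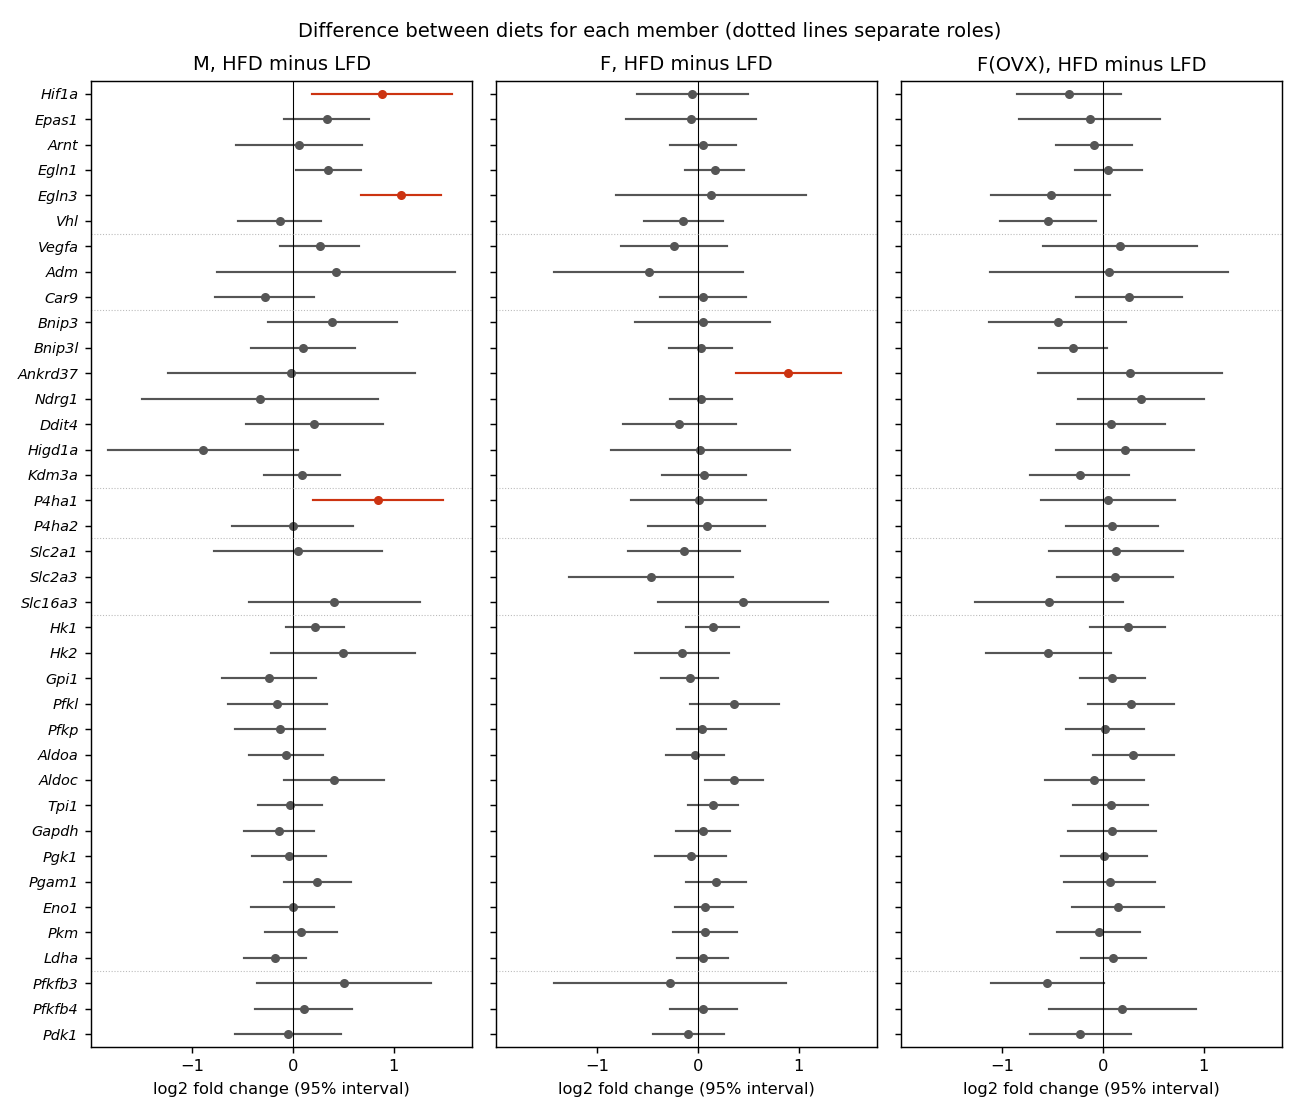
Log2 fold change of HFD over LFD (horizontal axis) with its 95% interval for each member (vertical axis, ordered by role) in M, F and F(OVX). Members called at a fold change of 1.5 and an unadjusted p under 0.05 are red, namely Hif1a, Egln3 and P4ha1 in M and Ankrd37 in F. Slc2a3 was not tested in M.

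In females, 1 of 38 members was called, Ankrd37, which encodes a small ankyrin repeat protein and is a HIF target. This was 2.63% of the members, with 0.398% of the 22085 genes tested called up and 0.797% down. Ankrd37 read 8.59, 7.85, 8.30 and 8.65 in F + LFD and 9.59, 9.22, 9.34 and 8.83 in F + HFD. All 4 HFD arrays lay above all 4 LFD arrays. The log2 fold change was 0.90 (SE 0.23, 1.86-fold, unadjusted p = 0.00396, adjusted p = 0.991 by limma). Same-numbered arrays deviated together in females, and blocking on the replicate number gave an unadjusted p of 0.00702 by limma. In 1 fit of all 24 arrays, which takes its spread from every group, Ankrd37 was no longer called (unadjusted p = 0.0598 by limma).

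In the other groups Ankrd37 was not called. It read 9.57, 9.85, 7.93 and 8.31 in M + LFD and 9.31, 8.43, 9.85 and 8.02 in M + HFD. It read 9.56, 8.92, 8.66 and 8.37 in F(OVX) + LFD and 9.71, 9.04, 9.77 and 8.06 in F(OVX) + HFD. The diets overlapped in both, with log2 fold changes of -0.01 (SE 0.54) and 0.27 (SE 0.40). In males, M + LFD replicates 1 and 2 were the 2 highest LFD arrays, and without them the difference was 0.78 (SE 0.52, unadjusted p = 0.178 by limma) and with the covariate 0.74.

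A second member, Aldoc, the aldolase best known from brain, also had non-overlapping diets in females. It read 10.52, 10.59, 10.52 and 10.84 in F + LFD and 10.85, 10.97, 11.05 and 11.05 in F + HFD. The log2 fold change was 0.36 (SE 0.12, unadjusted p = 0.0193, adjusted p = 0.991 by limma), under the fold-change threshold, and a second Aldoc probe gave 0.45 (unadjusted p = 0.00943 by limma). Aldoc read 10.73, 10.58, 10.18 and 10.95 in M + LFD, 11.11, 10.76, 10.79 and 11.42 in M + HFD, 11.20, 11.51, 10.81 and 10.90 in F(OVX) + LFD and 10.79, 11.04, 10.79 and 11.47 in F(OVX) + HFD. There the diets overlapped, with differences of 0.41 (SE 0.22) and -0.09 (SE 0.22), and the second probe gave 0.50 in males (unadjusted p = 0.0382 by limma) and -0.16 in ovariectomized females. Of all genes tested in females, 1.2% had all HFD arrays above all LFD arrays and 0.706% the reverse, and among the members 2 and 0 did.

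The median log2 fold change of the members in females was 0.04, with 24 higher and 14 lower, and over all genes it was -0.004. Of the 14 glycolytic enzymes 10 were higher and 4 lower, within -0.15 to 0.36. Hk1 read 12.83, 12.73, 12.86 and 12.86 in F + LFD and 12.97, 13.15, 12.86 and 12.91 in F + HFD. It overlapped by a single pair of arrays, and the difference was 0.15 (SE 0.12). Eno1 read 14.04, 13.95, 14.32 and 14.03 with LFD and 14.18, 14.10, 14.07 and 14.26 with HFD, and Pkm 14.25, 14.19, 14.61 and 14.38 with LFD and 14.24, 14.54, 14.51 and 14.44 with HFD. Each differed by 0.07 (SE 0.13 and 0.14).

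The alpha subunits and the classic targets showed no called difference in females. Epas1 read 13.16, 12.26, 13.26 and 13.18 in F + LFD and 12.74, 12.52, 13.46 and 12.86 in F + HFD. Vegfa read 10.17, 9.44, 9.33 and 9.45 with LFD and 9.17, 9.12, 9.38 and 9.78 with HFD, and Slc2a1 12.25, 11.32, 11.94 and 12.02 with LFD and 11.99, 11.28, 11.72 and 11.99 with HFD. Their diets overlapped, with differences of -0.07 (SE 0.28), -0.24 (SE 0.23) and -0.14 (SE 0.24). Within F + LFD, replicates 3 and 4 were above replicates 1 and 2 for Hif1a, Egln3, Bnip3 and Pfkfb3. Pfkfb3 read 8.61, 8.44, 10.27 and 10.33. The same 2 arrays had the higher mean of 6 macrophage and monocyte markers, 11.43 and 11.18 against 10.31 and 10.18. The mean of 5 measured neutrophil markers was also higher on them, 7.75 and 8.75 against 5.65 and 6.03. Only 2 to 4 of these 5 were well above background on an F + LFD array, so the neutrophil mean includes values near background. F + LFD replicate 3 was also highest of its group in the means of the distal colon markers, 9.20 against 5.42 to 5.57, and the smooth muscle markers, 14.36 against 12.25 to 13.24. The part of these markers in the members' levels in F + LFD was not tested.

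In ovariectomized females, 0 of 38 members were called by limma, while 1.18% of the 19211 genes tested were called up and 1.02% down. At an unadjusted p under 0.05 there were 709 of 19211 genes and 1 member, Vhl, whose product marks the HIF alpha subunits for degradation. Vhl read 9.65, 9.82, 9.81 and 9.30 in F(OVX) + LFD and 9.60, 9.07, 8.75 and 8.99 in F(OVX) + HFD. The diets overlapped, and the log2 fold change was -0.54 (SE 0.21, 1.46-fold lower, unadjusted p = 0.0297, adjusted p = 1 by limma), just under the fold-change threshold. No member had its diets apart, against 1.49% of genes with all HFD arrays above and 0.812% with all below. The median of the members was 0.06, with 24 higher and 14 lower, and over all genes 0.01.

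Oxygen-sensing genes were not called in ovariectomized females, with 5 of 6 at log2 fold changes of -0.54 to -0.09, of which Vhl alone had an unadjusted p under 0.05. Epas1 read 13.22, 13.70, 12.15 and 13.38 in F(OVX) + LFD and 13.04, 12.70, 12.99 and 13.20 in F(OVX) + HFD, with a difference of -0.13 (SE 0.31). Vegfa read 9.71, 10.60, 8.82 and 10.22 with LFD and 9.95, 9.98, 10.16 and 9.93 with HFD, with a difference of 0.17 (SE 0.34). For both genes, F(OVX) + LFD replicate 3, the dimmest array, was the lowest of all 24. Slc2a1 read 12.30, 12.42, 11.22 and 12.10 with LFD and 12.18, 11.81, 12.65 and 11.93 with HFD, and again replicate 3 of F(OVX) + LFD was the lowest. The difference was 0.13 (SE 0.29).

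Glycolytic enzymes ran from -0.54 for Hk2 to 0.30 for Aldoa in ovariectomized females, with 11 of 14 higher and 0 called. Hk1 read 13.17, 12.96, 12.49 and 12.82 in F(OVX) + LFD and 13.12, 13.05, 13.17 and 13.08 in F(OVX) + HFD. Eno1 read 14.61, 13.81, 13.85 and 14.27 with LFD and 14.21, 14.18, 14.50 and 14.26 with HFD, and Pkm 14.77, 14.74, 14.24 and 14.49 with LFD and 14.18, 14.50, 14.77 and 14.62 with HFD. These overlapped, with differences of 0.25 (SE 0.16), 0.15 (SE 0.20) and -0.04 (SE 0.18). Leaving out 1 array at a time gave between 0 and 3 called members. Without F(OVX) + HFD replicate 3 they were Egln3, Hk2 and Slc16a3, and other members appeared without other arrays. With the mean of the distal colon markers as a covariate 3 members were called, Ndrg1, Slc16a3 and Vegfa (for Vegfa 0.73, unadjusted p = 0.0226 by limma). That marker mean was 5.76, 8.67, 5.67 and 8.27 in F(OVX) + LFD and between 5.43 and 6.08 in F(OVX) + HFD. In this comparison the smooth muscle markers moved with diet, 4 of 6 being called up, and their mean log2 intensity ranged from 11.49 to 12.85 in F(OVX) + LFD and from 12.78 to 14.09 in F(OVX) + HFD. The goblet marker Spdef, the absorptive marker Guca2a and the skeletal muscle marker Acta1 were also called up, at 0.76, 0.90 and 0.74. All 5 absorptive markers were higher, and of the goblet markers 4 were higher and 2 lower. Their part in the members' values was not tested.

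**Figure D3:**
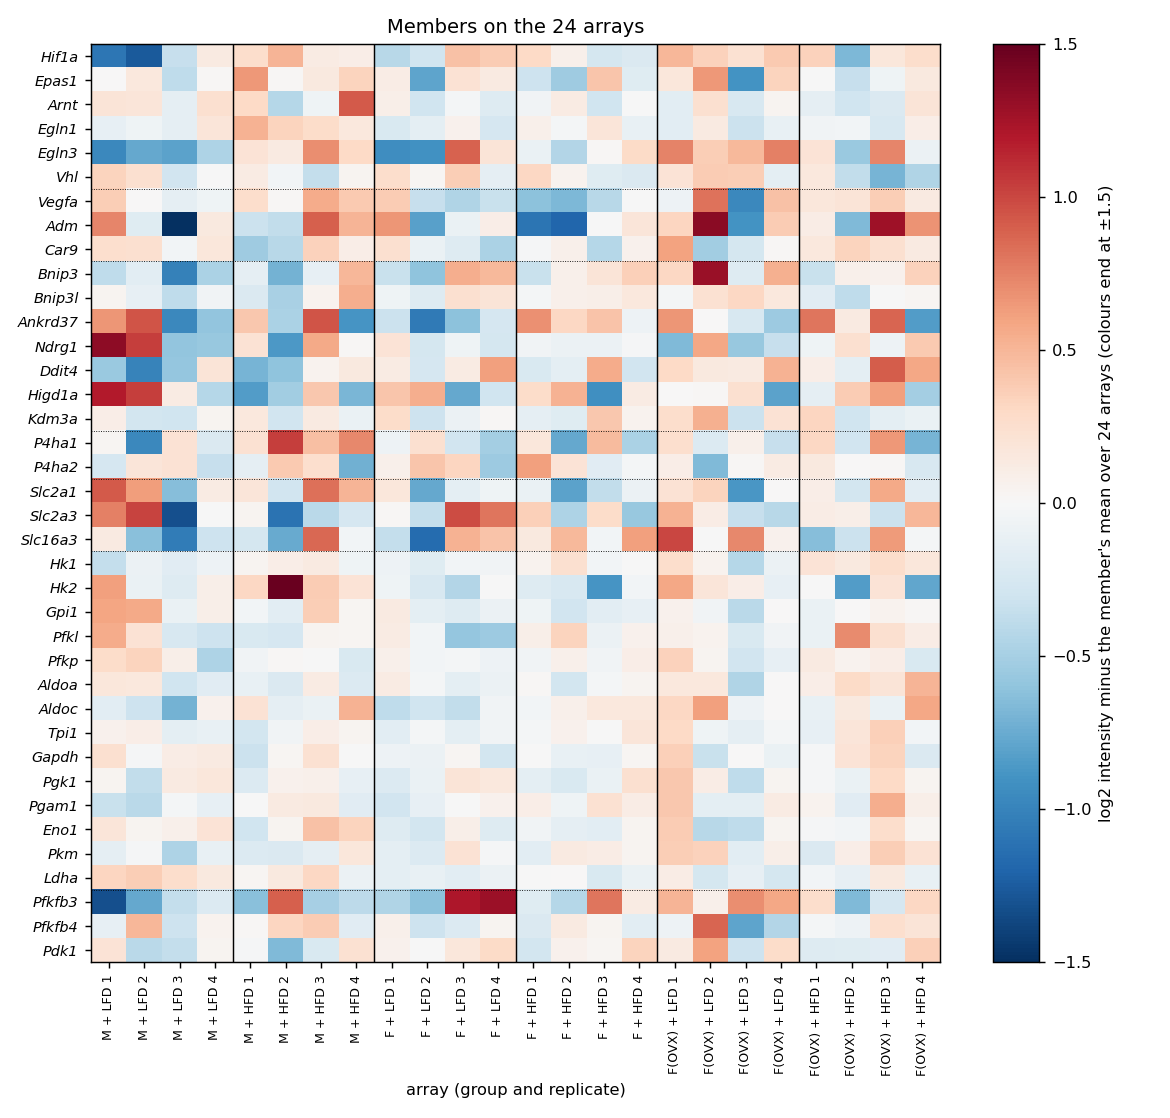
Each row is a member, ordered by role, and each column an array, and color gives the log2 intensity minus the member's mean over the 24 arrays, red above and blue below, with colors ending at ±1.5. M + LFD replicates 1 and 2 are low in Hif1a and high in Ndrg1 and Higd1a, F + LFD replicates 3 and 4 are high in Pfkfb3, and F(OVX) + LFD replicate 3 is the lowest array for 10 members.

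Differences between the diet effects were tested in a joint limma fit over the 24 arrays. For males against females, 2 members were called, both with a larger effect of HFD in males, namely Egln3 by 0.95 (SE 0.45, unadjusted p = 0.0483, adjusted p = 0.975 by limma) and Hif1a by 0.94 (SE 0.39, unadjusted p = 0.0259, adjusted p = 0.975 by limma). Of 22383 genes tested, 1.87% were called up and 1.08% down in this contrast. Both calls were lost without M + LFD replicates 1 and 2, where the values were 0.83 (unadjusted p = 0.131 by limma) and 0.40 (unadjusted p = 0.284 by limma). They were also lost without either of those arrays alone, or without F + LFD replicate 3 or 4 alone. Of the 16 male and female arrays left out singly, 11 ended the Egln3 call and 6 the Hif1a call, with the Egln3 contrast lowest, at 0.59, without F + LFD replicate 3 (unadjusted p = 0.139 by limma), and leaving out 1 array at a time gave 0 to 4 called members. Under a replicate block, Egln3 was called and Hif1a was not (unadjusted p = 0.0568 by limma).

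For males against ovariectomized females 3 members were called. The contrast was 1.59 for Egln3 (SE 0.45, unadjusted p = 0.002, adjusted p = 0.562 by limma), 1.22 for Hif1a (SE 0.39, unadjusted p = 0.00521, adjusted p = 0.562 by limma) and 1.04 for Hk2 (SE 0.40, unadjusted p = 0.0179, adjusted p = 0.571 by limma). Of all genes 3.11% were called up and 3.05% down. The log2 fold changes of the 3 genes were above 0 in males and below 0 in ovariectomized females, where none was called. Without M + LFD replicates 1 and 2 the Hif1a contrast was 0.68 (unadjusted p = 0.0753 by limma) and not called. The Hk2 call was lost without M + HFD replicate 2, at 0.74 (unadjusted p = 0.0503 by limma). For Egln3 the call held whichever 1 array was left out, with the contrast between 1.39 and 1.81, and without both M + LFD arrays. In this contrast 2 of 3 distal colon markers tested were called up, with a median of 6.26. Called down were 2 absorptive, 2 goblet, 1 adipocyte and 1 skeletal muscle marker. Of the absorptive markers 3 were above 0 and 2 below (median 0.44), and of the goblet markers 3 were above and 3 below. All 6 smooth muscle markers were below 0 (median -0.83) and all 6 macrophage and monocyte markers above 0 (median 0.47), none of them called. Between males and females 1 distal colon marker was called up. Their part in the members' contrasts was not tested.

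Ovariectomized and intact females had 0 members called between their diet effects by limma, with 0.764% of genes called up and 0.755% down. An unadjusted p under 0.05 was found for 0 members and for 475 of 22383 genes. Averaged over M, F and F(OVX), the effect of HFD also gave 0 called members, with 0.201% of genes called up and 0.572% down. At an unadjusted p under 0.05 in that average there were 943 of 22383 genes and 3 of 38 members, all 3 under a fold change of 1.5. Hk1 was higher by 0.21 (SE 0.07, unadjusted p = 0.00777 by limma), Egln1 was higher by 0.19 (SE 0.07, unadjusted p = 0.0138 by limma) and Vhl was lower, at -0.27 (SE 0.11, unadjusted p = 0.0216 by limma), and their adjusted p was 0.984 by limma.

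Over both diets, 2 members were called between males and females. Hk2 was higher in males by 0.61 (SE 0.20, unadjusted p = 0.00626, adjusted p = 0.11 by limma), and Pfkfb3 was lower in males, at -0.63 (SE 0.30, unadjusted p = 0.049, adjusted p = 0.276 by limma). Thus 2.63% of the members were called up and 2.63% down, near the shares of all genes, 2.82% and 2.75%. Slide cannot be told apart from sex. Both calls were lost without M + LFD replicate 1, F + LFD replicate 3 or F + HFD replicate 3, each left out alone. Hk2 read 11.42, 10.70, 10.61 and 10.89 in M + LFD, 11.12, 12.29, 11.19 and 11.01 in M + HFD, 10.74, 10.57, 10.36 and 10.80 in F + LFD and 10.61, 10.56, 9.92 and 10.76 in F + HFD. The sexes overlapped, and in ovariectomized females Hk2 read 11.38, 10.99, 10.90 and 10.69 with LFD and 10.80, 9.97, 11.01 and 10.03 with HFD. Pfkfb3 read 7.73, 8.28, 8.70 and 8.85 in M + LFD, 8.43, 9.95, 8.56 and 8.66 in M + HFD and 8.88, 8.63, 9.86 and 9.18 in F + HFD, and 9.57, 9.13, 9.75 and 9.63 in F(OVX) + LFD and 9.32, 8.39, 8.80 and 9.37 in F(OVX) + HFD. With the F + LFD levels given above, the sexes overlapped here too. In this contrast all 6 epithelial markers were above 0 (1 at an adjusted p under 0.05 by limma), all 6 smooth muscle and all 6 fibroblast markers were below 0 (1 fibroblast marker called), and 2 distal colon markers were called down. Their part in the members' levels was not tested. Of the members 19 were higher and 19 lower in males, with a median of 0.007. By limma, 8 of 38 members and 4032 of 22383 genes had an unadjusted p under 0.05. The lowest value among the mitochondrial and stress targets was -0.45. Under the fold-change threshold, Ldha was higher in males by 0.29 (SE 0.08, unadjusted p = 0.0015, adjusted p = 0.0538 by limma), Slc2a1 by 0.56 (SE 0.23, adjusted p = 0.211 by limma) and Vegfa by 0.48 (SE 0.19, adjusted p = 0.19 by limma). The 8 male arrays had Ldha levels of 15.52 to 15.98, and those of intact females 15.39 to 15.62, so they overlapped.

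Ovariectomized and intact females had 0 called members in their levels over both diets by limma, with 0.474% of genes called up and 1.68% down. At an unadjusted p under 0.05 there was 1 member, Vegfa, higher in ovariectomized females by 0.44 (SE 0.19, adjusted p = 0.786 by limma). Of 22383 genes 1387 passed that threshold. All 14 glycolytic enzymes had values above 0, from 0.004 to 0.265, none of them called, and the genes share samples and are not independent. In the same contrast all 6 smooth muscle markers and all 6 fibroblast markers had values below 0, with medians of -0.64 and -0.49. An F test of limma over the 6 groups had 6 members at an unadjusted p under 0.05 (Egln3, Ldha, Egln1, Hk2, Hif1a and Ddit4), 12.2% of all genes passing the same threshold. At an adjusted p under 0.05 it left 0 of 38 members and 0.925% of genes.

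Of 46 other genes of the hypoxia response and glycolysis, 41 were tested in males and 5 were called, 2 up and 3 down. Among all genes tested in males, 2.5% were called up and 1.8% down. The 46 were chosen with earlier results of these data known, so the count describes the list. Bhlhe40, a transcriptional repressor induced by HIF, and Eno3, the muscle form of enolase, were higher with HFD, by 0.96 (SE 0.33) and 2.49 (SE 0.69). Car12, a membrane carbonic anhydrase, Fbp1, an enzyme of gluconeogenesis, and Hkdc1, a hexokinase of epithelia, were lower, at -2.33 (SE 0.83), -0.90 (SE 0.36) and -3.36 (SE 1.40). Their adjusted p was 0.801 by limma. Hkdc1 read 12.75, 12.87, 7.59 and 7.21 in M + LFD and 5.48, 6.77, 8.20 and 6.52 in M + HFD, so the difference lay in M + LFD replicates 1 and 2. Without those arrays Hkdc1 differed by -0.66, Car12 by -1.32, Fbp1 by -0.24 and Eno3 by 1.59, and none of these was called, while Bhlhe40 differed by 1.25 (unadjusted p = 0.0179 by limma) and was called. Also called without them were Plod1 at 0.61 (unadjusted p = 0.0112 by limma), Pdk2 at 0.68 (unadjusted p = 0.0276 by limma) and Hk3 at -0.85 (unadjusted p = 0.0336 by limma). For each of these the adjusted p was 0.926 by limma. In females 0 of 42 were called by limma, and 0 had an unadjusted p under 0.05. Among all genes, 0.398% were called up and 0.797% down in females, and 1.18% up and 1.02% down in ovariectomized females. In ovariectomized females 1 of 42 was called, Car12, higher with HFD by 1.44 (SE 0.64, unadjusted p = 0.0497, adjusted p = 1 by limma).

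**Figure D4:**
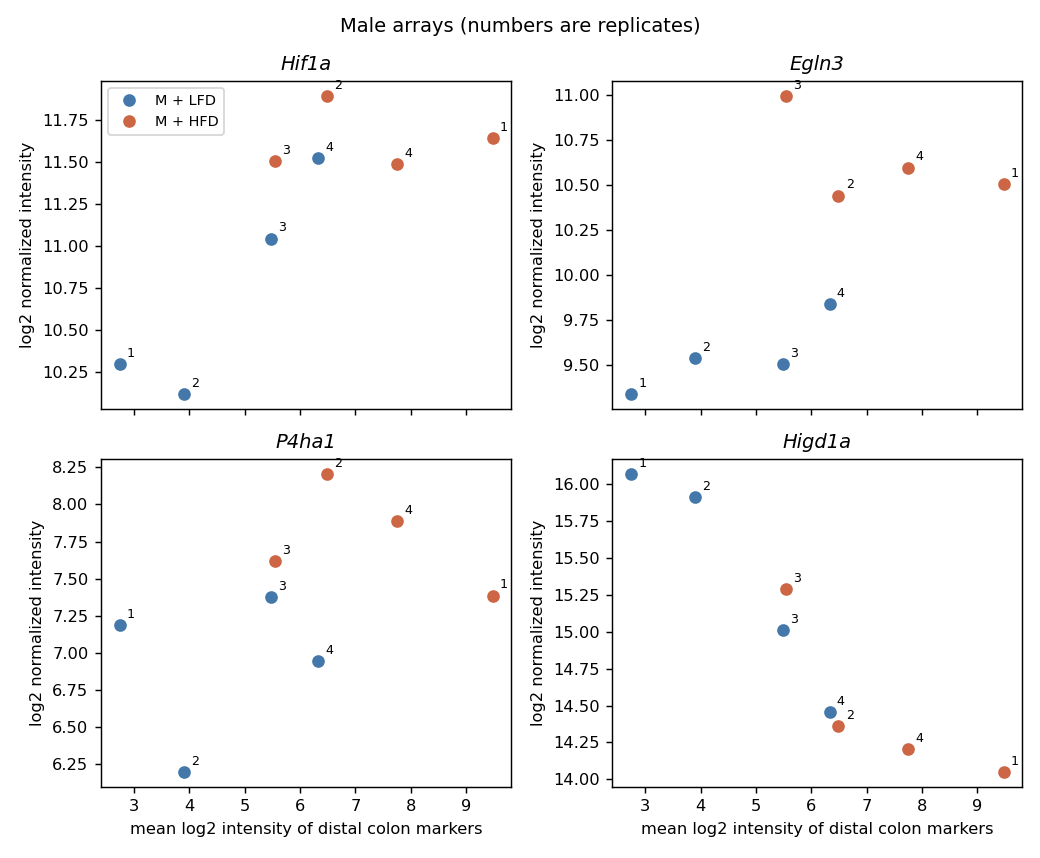
Log2 normalized intensity of Hif1a, Egln3, P4ha1 and Higd1a (vertical axes) against the mean log2 intensity of 6 distal colon markers (horizontal axis) on the 8 male arrays, blue for M + LFD and orange for M + HFD, with replicate numbers. M + LFD replicates 1 and 2 lie at marker means of 2.74 and 3.90, with Hif1a at 10.30 and 10.12, whereas Egln3 is lower in all 4 M + LFD arrays than in all 4 M + HFD arrays.

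Leaving out both M + LFD arrays thus kept 1 of the 3 male calls, Egln3, and the covariate kept the same one. With the covariate the P4ha1 difference was not smaller, at 0.92 against 0.85. With 4 HFD arrays against 2 LFD arrays the exact permutation test cannot go below p = 0.0667, the value Egln3 reached.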

How the data were processed

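RNA described as from the distal colon, of 1 mouse per array, was labeled with Cy3, and 2 libraries (M + LFD replicates 1 and 2) go against that description in their Hox genes. The authors scanned the arrays and deposited, per the file headers, intensity values made by Agilent Feature Extraction 11.0.1.1, after its own background subtraction and spatial detrending. These intensities carried no normalization between arrays. The design was built on an older mouse genome than the promoter windows, so no gene coordinates are given from it. Here the processed intensities of the 24 arrays were put on the log2 scale and quantile normalized (R 4.3.3, limma 3.58.1, with data.table version 1.17.8). Control spots and spots marked as outliers were left out, repeated spots of a probe were averaged, and the brightest probe stood for each gene. Of 56605 probes, 32994 had a gene symbol. Testing required a signal well above background throughout 1 or more of the groups compared. The number of arrays limits the precision.

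Diets were compared with limma within M, F and F(OVX), on 8 arrays each, with Benjamini-Hochberg adjustment over all genes, and differences between diet effects and between levels in a joint fit. Replicate numbers were tested for pairing by the correlation of same-numbered arrays' deviations from their group means, which was 0.26 to 0.58 in F, -0.26 to 0.01 in M and -0.09 to 0.33 in F(OVX). By a threshold of 0.1 for every pair, same-numbered arrays deviated together in F and not in M. In F(OVX), replicates 1, 3 and 4 were at 0.33, 0.32 and 0.25, but replicate 2 was at -0.09, so the threshold was not met for every pair. The labels name no pairing of mice between the diets, and the source of the shared deviation was not tested. Alternatives were the 75th percentile scaling, normexp (offset 50), other filters, the mean of all probes, an unmoderated test as in the methods, a joint fit, a replicate block, the distal colon markers as a covariate, and leaving out arrays. Scripts were tested on simulated data. The members, gene lists and marker lists were chosen with earlier results of these data known. All members are named by role, and values on every array are given for members called, or with diets apart, in a diet comparison within M, F or F(OVX), and for Hif1a, Epas1, Vegfa, Slc2a1, Pkm and Eno1.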

Additional observations from a re-analysis of the deposited data

Results flagged for a closer look

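Each member was checked in each group for 1 array far from the other 3, which chance alone gives in about 1 group in 20. Of 228 pairs of a member and a group 9 were found, against 11.4 at that rate. Among the oxygen-sensing genes, Hif1a was 10.71 on F(OVX) + HFD replicate 2 with the other arrays of its group at 11.56 to 11.72, Epas1 was 12.26 on F + LFD replicate 2 with the others at 13.16 to 13.26, and Arnt was 9.11 on M + LFD replicate 3 with the others at 9.43 to 9.48. Vegfa was 10.17 on F + LFD replicate 1 with the others at 9.33 to 9.45, and P4ha2 was 7.37 on F(OVX) + LFD replicate 2 with the others at 8.04 to 8.16. M + HFD replicate 2 was high in both Hk2, at 12.29 with the others at 11.01 to 11.19, and Pfkfb3, at 9.95 with the others at 8.43 to 8.66. Pdk1 was 11.33 on F(OVX) + HFD replicate 4 with the others at 10.78 to 10.81, and Ddit4 was 13.9 on F + HFD replicate 3 with the others at 13.06 to 13.2.

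Diet effects were compared between M, F and F(OVX) in 114 tests of members, of which 5 passed the fold-change and unadjusted limma thresholds and 0 an adjusted p under 0.05. Between males and females these were Egln3 at 0.95 and Hif1a at 0.94 on the log2 scale. Between males and ovariectomized females they were Egln3 at 1.59, Hif1a at 1.22 and Hk2 at 1.04. Among all genes, 1.87% were called up and 1.08% down between males and females. The shares were 3.11% and 3.05% between males and ovariectomized females, and 0.764% and 0.755% between ovariectomized and intact females.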

How the results depend on the processing

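No called value changed sign. In males 3 members were called, and 1 (Egln3) remained with the distal colon markers as a covariate, where P4ha1 was 0.92 against 0.85 but had an unadjusted p of 0.0591 by limma, and 1 (Egln3) without both M + LFD arrays low in those markers. In females the 1 call became 0 in a joint fit of all arrays, and in F(OVX) 0 became 3 with the covariate. For the contrast of M with F, 2 calls became 1 with the replicate block and 0 without both arrays. For M with F(OVX), 3 became 5 with the replicate block. The averaged effect went from 0 to 1 (Ankrd37) without both arrays. For levels of M against F, 2 became 1 without both arrays (Slc2a3) and 1 with the 75th percentile (Hk2). With all arrays, Slc2a3 was not well above background throughout M + LFD or M + HFD. It thus passed the filter through groups of F or F(OVX), and its call carries that limit. The 75th percentile, normexp and all-probe versions of the joint contrasts were chosen after seeing the data. Under the replicate block, males kept Egln3 and Hif1a and lost P4ha1 (unadjusted p = 0.0531 by limma), though same-numbered male arrays did not deviate together. In females, where same-numbered arrays did, the block moved the genes called from 264 to 586 and changed no member's call.

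Leaving out 1 array at a time gave 2 to 4 called members in M, 1 to 1 in F, 0 to 3 in F(OVX), 0 to 0 for the averaged effect, 0 to 4 for M against F, 0 to 2 for F(OVX) against F and 3 to 6 for M against F(OVX). For levels it gave 0 to 3 for M against F and 0 to 2 for F(OVX) against F. The members' median ran from -0.009 to 0.158 in M, -0.019 to 0.039 in F and -0.054 to 0.134 in F(OVX), so its sign was not fixed, and in M it reached 0.20 with the covariate. Over the alternatives, the genes called ranged from 264 to 1510 in M (882), 80 to 733 in F (264) and 209 to 843 in F(OVX) (421). In the joint contrasts they ranged from 54 to 286 for the averaged effect (173), 427 to 1235 for M against F (661), 151 to 549 for F(OVX) against F (340) and 910 to 1936 for M against F(OVX) (1378). For levels they ranged from 495 to 1694 (1246) and 115 to 688 (481). With normexp, 21.2% of the genes called in F were up, against 33.3%. Except where a value above shows it, the cause of these changes was not tested. With 4 arrays a group, small differences in the members could not be detected.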
